A study of Mus musculus with 6 samples.

Results

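Chemokines and inflammatory cytokines were represented by 10 genes, Ccl3, Ccl4, Ccl5, Ccl6, Ccl9, Cxcl2, Il1b, Il1rn, Tnf and Csf1, taken by symbol from a table of read counts for 46983 mouse genes. All 10 had a row. The RNA came from mouse leukemia cells driven by MLL-AF9, an oncogene that arises by fusion in human leukemia and that both groups carried. The groups were Alox5-/- and wild type (WT), each on the C57BL/6J background, untreated and with 3 libraries, and they differed in whether the marrow donor lacked Alox5, the gene of 5-lipoxygenase. Per the labels, the oncogene had been delivered by retrovirus into Lin-Sca-1+c-Kit+ marrow cells, and GFP+ cells were then given to irradiated C57BL/6J recipients. The labels call each library a biological replicate and do not say how many animals or transductions a group came from, so the p-values here speak of the spread among these libraries.

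Chemokines are small secreted proteins that draw leukocytes along a gradient through G protein-coupled receptors. CC chemokines such as CCL3 and CCL4 act mainly on monocytes, dendritic cells and lymphocytes, and CXCL2 acts on neutrophils. IL-1 beta and TNF are the early alarm cytokines of myeloid cells, the IL-1 receptor antagonist made by Il1rn blocks IL-1 signalling, and M-CSF, the product of Csf1, keeps monocytes and macrophages alive.

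The libraries held 28985597 to 38695948 gene counts. The Alox5 transcript itself stood at 65.6, 62.0 and 64.8 CPM, the count scaled by library size, in Alox5-/- libraries and at 102, 106 and 106 CPM in WT libraries. The count covers the whole gene and is only a partial check of the genotype, since the deleted part of the allele is not given here. Of the surface genes used to sort the donor cells, Kit averaged 136 CPM in Alox5-/- libraries and 160 CPM in WT libraries, while Ly6a, which encodes Sca-1, was at 0.762 and 1.06 CPM. Alox5-/- replicate 2 stood apart from its group, with a chi-square per degree of freedom of 8.53 and 9.65 against the other two, where pairs without it gave 2.11 to 4.79 within groups.

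Ccl3 and Ccl4 were higher in Alox5-/- cells, Csf1 was slightly higher, Il1rn was lower, and Ccl6, Ccl9 and Tnf were not called. Il1b, Cxcl2 and Ccl5 lay at or near the limit of detection in both genotypes. Of the 7 genes that passed the filter on low counts, each with at least 82 counts in every library, 3 were called higher, 1 was called lower and 3 were not called by edgeR's quasi-likelihood test at an adjusted p under 0.05. Among all 13705 tested genes 26.8% were called higher and 27% lower, and 53.8% in either direction, a share near that of the 4 calls among 7. These shares over all genes stand beside every later count of called genes in a list or among neighbours. The median log2 fold change of the 7 genes was 0.00, as over all tested genes. The libraries of the genotypes did not overlap for 4 of the 7, against 60% of tested genes.

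**Figure D1:**
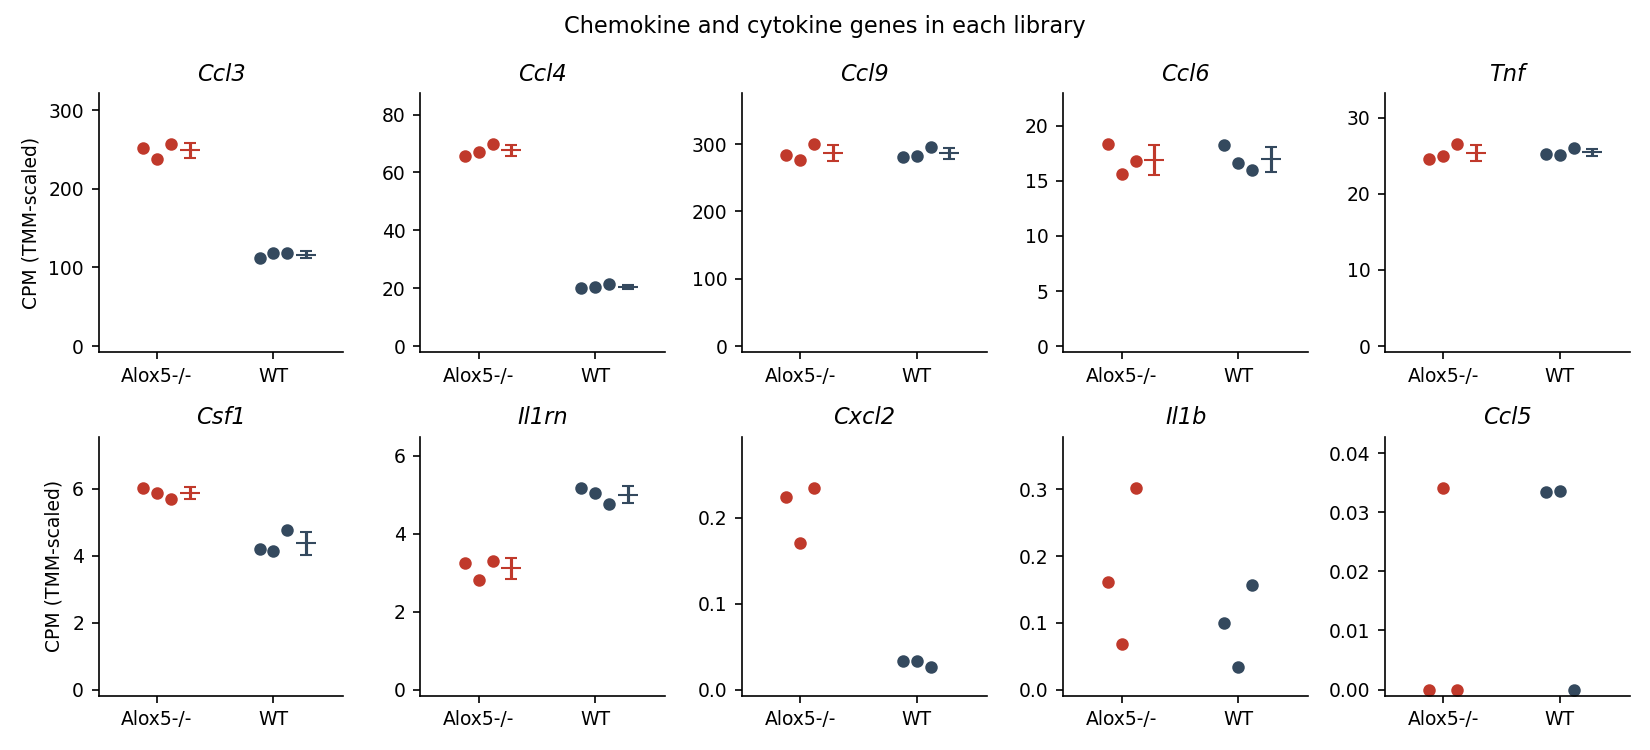
Expression of the 10 ligand genes in each library, as CPM after TMM scaling, with Alox5-/- libraries in red and WT libraries in dark blue; for the 7 tested genes the bar gives the mean ± SD of 3 libraries. Ccl3 and Ccl4 sit far apart between genotypes, Csf1 and Il1rn less so, and the panels of Cxcl2, Il1b and Ccl5 span only a fraction of 1 CPM.

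Ccl3 encodes macrophage inflammatory protein 1 alpha, a ligand of CCR1. It was at 252, 238 and 257 CPM in Alox5-/- libraries and at 112, 119 and 119 CPM in WT libraries. The lowest Alox5-/- library was at 238 CPM, above the highest WT library. The fold change was 2.14 (95% interval 2.02 to 2.26), a log2 fold change of 1.10 (SE 0.04; adjusted p = 9.92e-12 by edgeR).

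Ccl4 encodes macrophage inflammatory protein 1 beta, a close relative of the Ccl3 product. It stood at 65.8, 67.2 and 69.8 CPM in Alox5-/- libraries and at 19.9, 20.4 and 21.3 CPM in WT libraries. Every Alox5-/- library was above every WT library, and the values within a genotype were close to one another. The fold change was 3.29 (95% interval 3.07 to 3.52), a log2 fold change of 1.72 (SE 0.05; adjusted p = 8.44e-13 by edgeR). A larger log2 fold change than that of Ccl4 was found in few genes, since 99.28% of tested genes had a smaller one, and the share for Ccl3 was 97.75%. Called genes at least 2-fold higher made up 2.73% of tested genes. Without Alox5-/- replicate 2 the log2 fold changes were 1.14 for Ccl3 and 1.73 for Ccl4. In bulk RNA such as this, fewer cells of a type and less RNA per cell cannot be told apart.

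The fold change was larger in Ccl4 than in Ccl3, and their 95% intervals did not overlap. Within a library the count of Ccl4 relative to that of Ccl3 was 0.261, 0.282 and 0.272 in Alox5-/- and 0.178, 0.172 and 0.179 in WT. This ratio does not depend on library scaling, and the genotypes did not overlap. The log2 difference was 0.62, with p = 0.1 in a two-sided exact permutation test, the smallest that 3 libraries against 3 allow.

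Ccl9 and Ccl6, CC chemokines found in rodents and made by myeloid cells, share the receptor CCR1 with Ccl3. Ccl9 was at 284, 276 and 300.04 CPM in Alox5-/- libraries and at 281, 282 and 296 CPM in WT libraries. Ccl6 was at 18.3, 15.6 and 16.8 CPM in Alox5-/- and at 18.2, 16.7 and 16.0 CPM in WT. The ranges overlapped for both genes. Ccl9 had a log2 fold change of 0.00 (SE 0.04; adjusted p = 0.962 by edgeR), and its 95% interval ran from 0.949-fold to 1.06-fold. That of Ccl6 was also 0.00 (SE 0.07; adjusted p = 0.985 by edgeR), with an interval of 0.897-fold to 1.11-fold. The ratio of Ccl9 to Ccl6 counts was 17.0 ± 1.33 in Alox5-/- and 16.9 ± 1.52 in WT (± SD over 3 libraries each; two-sided exact permutation p = 0.9). A further gene, E230016K23Rik, overlaps Ccl6 on the other strand and had 12 counts in all.

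These 4 chemokine genes lie in 1 cluster on mouse chromosome 11 (mm10). Ccl9 spans 83572919 to 83578636 and Ccl6 spans 83587882 to 83593087, both on the minus strand. Ccl3 spans 83647844 to 83649355 on the minus strand, and Ccl4 follows on the plus strand from 83662584 to 83664683, 13228 bases away. The same cluster thus held genes with no detected change and, 54756 bases further on, the 2 genes that rose. Ccl5, which encodes RANTES and lies on the far side of Ccl9 at 83525778 to 83530518, was close to undetected.

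The next tested gene beyond Ccl4 rose as well. Wfdc17, which encodes a small secreted whey acidic protein-type factor of activated macrophages, starts 39307 bases after Ccl4. It was at 65.7, 59.6 and 69.2 CPM in Alox5-/- libraries and at 33.7, 33.2 and 36.6 CPM in WT libraries, with no overlap (log2 fold change 0.91, SE 0.06; adjusted p = 5.53e-09 by edgeR). Of 13 tested genes reported on this stretch, counting those within 250 kb of a chemokine gene and the chemokine genes themselves, 5 were higher, 3 lower and 5 not called, though Mmp28 and Gas2l2 lost their calls with DESeq2 (adjusted p = 0.158 and 0.0584). The outer called genes had log2 fold changes of -0.52 for Gas2l2, -0.43 for 1700020L24Rik, -0.21 for Heatr6, 0.24 for Taf15, an RNA-binding protein of the transcription machinery, and 0.26 for Mmp28. Wfdc21, the gene after Wfdc17 among those tested, had 0.59 and was not called (adjusted p = 0.0788 by edgeR).

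**Figure D2:**
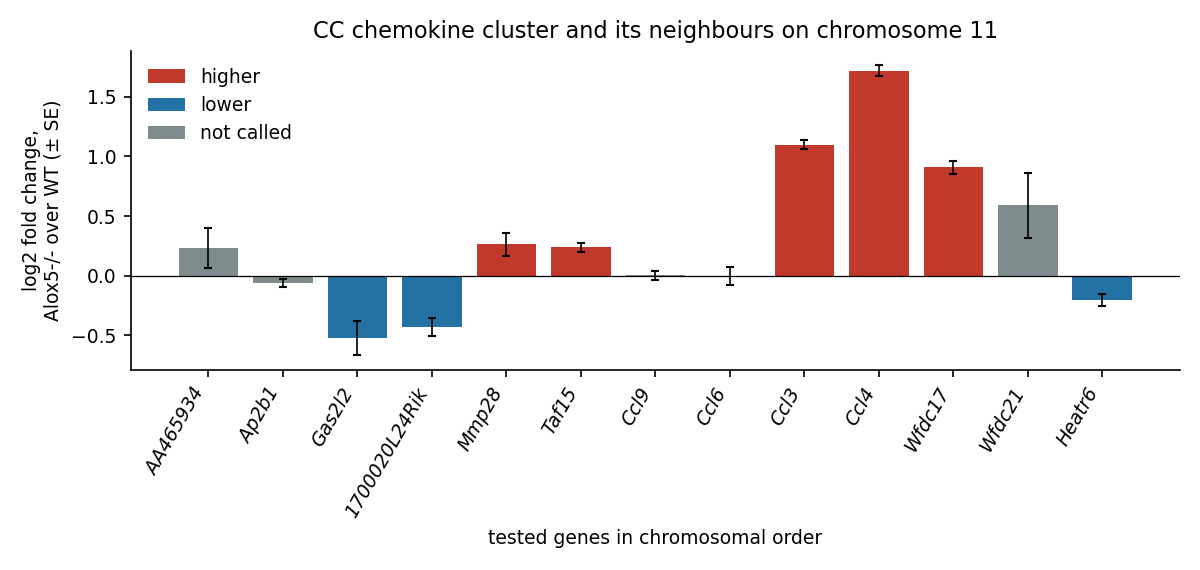
Log2 fold change of Alox5-/- over WT, with its SE, for the 13 tested genes reported on the chromosome 11 stretch in chromosomal order; red bars are called higher, blue bars lower and grey bars not called. Ccl3, Ccl4 and Wfdc17 stand next to each other at 1.10, 1.72 and 0.91, beside Ccl9 and Ccl6 at 0.00.

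The sequence around the start site is shown for a gene that rose (Ccl3) and for its neighbour with no detected change (Ccl9), together with Csf1 and Cxcl2. The windows are from RefSeq (GRCm38.p6, the build called mm10), run 5′ to 3′ on the strand of the gene, and cover 250 bases before to 50 bases after the start site. Capitals mark matches, on either strand, to the NF-kB consensus, to the AP-1 motif TGANTCA, to the PU.1 core GAGGAA or to the TATA motif TATAAA. The windows lie at chr11:83649329-83649628 (minus strand) for Ccl3, chr11:83578587-83578886 (minus strand) for Ccl9, chr3:107760420-107760719 (minus strand) for Csf1 and chr5:90903649-90903948 (plus strand) for Cxcl2.
Ccl3: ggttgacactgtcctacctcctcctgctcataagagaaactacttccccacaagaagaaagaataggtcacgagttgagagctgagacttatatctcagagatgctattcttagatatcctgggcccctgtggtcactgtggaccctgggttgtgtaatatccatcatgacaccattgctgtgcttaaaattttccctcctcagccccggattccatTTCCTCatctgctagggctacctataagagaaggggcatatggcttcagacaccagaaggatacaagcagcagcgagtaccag
Ccl9: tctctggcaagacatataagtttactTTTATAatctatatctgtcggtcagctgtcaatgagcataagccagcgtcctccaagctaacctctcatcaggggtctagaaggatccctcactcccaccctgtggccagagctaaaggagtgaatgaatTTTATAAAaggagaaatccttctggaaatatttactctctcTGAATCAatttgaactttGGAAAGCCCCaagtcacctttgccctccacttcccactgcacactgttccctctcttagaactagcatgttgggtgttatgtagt
Csf1: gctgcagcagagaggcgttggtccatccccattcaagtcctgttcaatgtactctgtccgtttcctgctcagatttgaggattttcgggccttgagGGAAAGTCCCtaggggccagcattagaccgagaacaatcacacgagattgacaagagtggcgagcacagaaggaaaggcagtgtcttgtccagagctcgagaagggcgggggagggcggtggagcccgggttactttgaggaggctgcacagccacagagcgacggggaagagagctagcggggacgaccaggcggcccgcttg
Cxcl2: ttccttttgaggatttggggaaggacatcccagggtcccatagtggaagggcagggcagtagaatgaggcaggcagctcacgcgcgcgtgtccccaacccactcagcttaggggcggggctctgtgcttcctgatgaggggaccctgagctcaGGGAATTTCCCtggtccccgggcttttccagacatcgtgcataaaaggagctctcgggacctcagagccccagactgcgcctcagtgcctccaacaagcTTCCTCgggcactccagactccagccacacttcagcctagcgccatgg

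The NF-kB consensus was matched in the Cxcl2, Csf1 and Ccl9 windows and not in that of Ccl3. Cxcl2 was not tested, Csf1 was called higher and Ccl9 was not called. In Cxcl2 the 2 matches overlap each other in a single run starting 97 bases before the start site, in Csf1 the match starts 154 bases before it and in Ccl9 35 bases before it. Of 32851 promoter windows of the same length in the mouse table, 8.46% held such a match, 7.81% held TGANTCA, 28.3% held GAGGAA and 13.6% held TATAAA. Ccl9 also held TGANTCA at 53 bases before its start site and TATAAA in both orientations, and the Ccl6 window matched none of the 4 motifs. The Ccl3 window held GAGGAA alone, read on the other strand from 33 bases before the start site. A match is a run of letters and no measurement of binding. Of the other windows, that of Tnf held GAGGAA and TATAAA, that of Il1b held TATAAA, and those of Il1rn held TGANTCA in one and TATAAA in another.

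Seen per length, Ccl3 was the most abundant of the 10 transcripts in both genotypes. On the scale of CPM per kilobase of merged exons, Ccl3 stood at 325 ± 12.6 in Alox5-/- and 152 ± 5.16 in WT (± SD over 3 libraries each). Ccl4 stood at 102 ± 3.07 and 31.1 ± 1.07, and Ccl9 at 94.2 ± 4.05 and 94.0 ± 2.69, in Alox5-/- and WT. Ccl4 was thus just above Ccl9 in every Alox5-/- library, at 99.8 to 106 against 90.6 to 98.5, and below it in every WT library, at 30.2 to 32.3 against 92.3 to 97.1. Tnf (15.5 in both genotypes) and Ccl6 (9.42 in Alox5-/- and 9.46 in WT) followed, then Csf1 (1.11 and 0.826) and Il1rn (0.562 and 0.903), whose order differed between the genotypes. Cxcl2, Il1b and Ccl5, with 1 to 19 counts per genotype, were last. Merged exons can be longer than the transcript a cell uses, so that order between genes is approximate.

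The 39 chemokine ligand genes with a row in the table summed to 535, 515 and 552 CPM per kilobase in Alox5-/- libraries and to 281, 291 and 296 in WT libraries (two-sided exact permutation p = 0.1, the smallest possible). Ccl3 and Ccl4, already called higher, made up most of the sum, so this p adds nothing about the other ligands. Ccl3 made up 60.9% ± 0.536 of that sum in Alox5-/- and 52.5% ± 0.697 in WT. Ccl4 made up 19.2% ± 0.564 in Alox5-/- and 10.7% ± 0.142 in WT. The share of Ccl9 was 17.6% ± 0.211 in Alox5-/- and 32.5% ± 0.55 in WT, and that of Ccl6 was 1.76% ± 0.127 and 3.27% ± 0.307 (± SD over 3 libraries each). Shares add up to the whole, and the lower shares of Ccl9 and Ccl6 stood beside CPM values that were not called different.

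**Figure D3:**
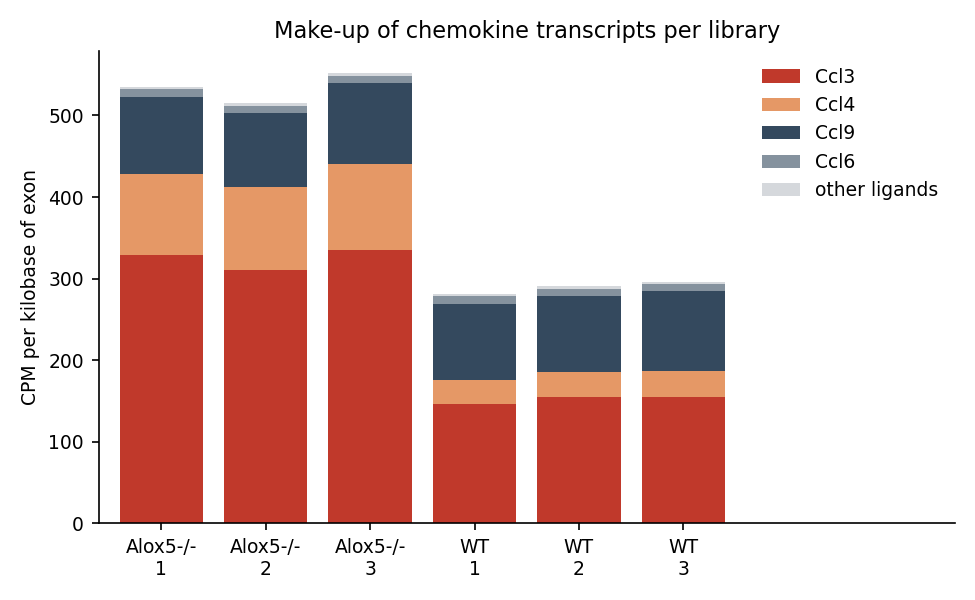
Stacked levels of chemokine ligand transcripts in each library, as CPM per kilobase of merged exons, with 3 Alox5-/- libraries on the left and 3 WT libraries on the right. The total was 515 to 552 in Alox5-/- and 281 to 296 in WT, and the Ccl3 and Ccl4 layers account for the visible gap while the Ccl9 layer keeps its height.

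Few other chemokines were expressed. Of 34 other ligand genes on the list, 33 had a row, 15 had no count in any library and 3 were tested. Cxcl10, an interferon-induced ligand of CXCR3, averaged 1.76 CPM in Alox5-/- libraries and 1.14 CPM in WT libraries, with no overlap (log2 fold change 0.62, SE 0.17; adjusted p = 0.00533 by edgeR). The call on Cxcl10 was lost with DESeq2 (adjusted p = 0.0602). Ccl25, a thymic and intestinal chemokine, was at 4.79 ± 0.215 CPM in Alox5-/- libraries and 4.85 ± 0.406 CPM in WT libraries (± SD over 3 libraries each). Ccl27a, a skin chemokine whose count is uncertain because near-identical copies exist, was at 0.955 and 0.940 CPM. Neither was called (adjusted p = 0.923 by edgeR for Ccl25 and 0.885 for Ccl27a).

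Cxcl2, the neutrophil attractant also called MIP-2, did not pass the filter on low counts. It had 7, 5 and 7 counts in Alox5-/- libraries and 1 count in each WT library. All 3 Alox5-/- libraries were above all WT libraries, at 0.171 to 0.235 CPM against 0.0262 to 0.0337 CPM. The WT values were under the limit that a count of 0 allows, which is 0.0786 to 0.103 CPM (3 counts) by library, for counting error only. The summed counts of 19 and 3 gave a ratio of 6.87 (exact 95% interval 2.02 to 36.2, for counting error only), with p = 0.1 in a two-sided exact permutation test over libraries. With no filter edgeR's adjusted p was 0.00455, and with DESeq2 it was 0.0435. The fit with no filter gave far smaller adjusted p than the main fit at nearly the same fold change. For Ccl3 it gave 2.48e-189 by edgeR, against 9.92e-12 in the main fit (log2 fold change 1.11 and 1.10). Its adjusted p for Cxcl2 therefore carries little weight. Its neighbour Cxcl3 had 28 counts in all 6 libraries, and Cxcl1 had none.

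Il1b, the gene of IL-1 beta, had 5, 2 and 9 counts in Alox5-/- and 3, 1 and 6 counts in WT. The ranges overlapped, and the ratio of the summed counts was 1.73 (exact 95% interval 0.74 to 4.28), so a difference was not detectable at this depth. The antisense gene Il1bos overlaps Il1b and had 44 counts in all. The strand setting of the counting is not given, so reads of the overlapping stretch could not be assigned with certainty. Il1a, which encodes the other IL-1 agonist, had 5 counts in all 6 libraries. Ccl5 had 0, 1 and 0 counts in Alox5-/- and 1, 1 and 0 counts in WT, which gives no comparison.

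Il1rn was the one gene of the 10 that fell. It stood at 3.24, 2.80 and 3.29 CPM in Alox5-/- libraries and at 5.19, 5.05 and 4.77 CPM in WT libraries. Every Alox5-/- library was below every WT library. The log2 fold change was -0.68 (SE 0.11; adjusted p = 9.05e-05 by edgeR), or 1.6-fold lower, and without Alox5-/- replicate 2 it was -0.60. Il1rn spans 24336853 to 24351494 on chromosome 2, and Il1f9, a further member of the IL-1 family, lies near it. Il1f9, which encodes IL-36 gamma, was at 1.54, 1.13 and 1.65 CPM in Alox5-/- and at 4.99, 4.95 and 4.87 CPM in WT, again with no overlap (log2 fold change -1.77, SE 0.14; adjusted p = 5.82e-08 by edgeR). The neighbours of Il1rn did not move one way, since of 5 tested within 250 kb 1 was higher, 2 were lower and 2 were not called. Besides Il1f9 the lower gene was Gm13410, whose call was lost with DESeq2 (adjusted p = 0.0907) and limma-voom (adjusted p = 0.0579). Pax8, a transcription factor gene, was the higher one, at 6.16 ± 0.188 CPM in Alox5-/- libraries and 1.81 ± 0.182 CPM in WT libraries (log2 fold change 1.77, SE 0.11; adjusted p = 9.10e-09 by edgeR), and Psd4 had a log2 fold change of 0.01.

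The count of Il1rn relative to that of Il1b was 20.2, 41 and 10.9 in Alox5-/- libraries and 51.7, 150 and 30.3 in WT libraries. The ranges overlapped (two-sided exact permutation p = 0.2), and the ratio rested on 1 to 9 counts of Il1b per library. The log2 difference of -1.57 became -0.93 without WT replicate 2.

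Tnf was at 24.5, 24.9 and 26.5 CPM in Alox5-/- libraries and at 25.3, 25.1 and 25.98 CPM in WT libraries. The genotypes overlapped, and the log2 fold change was -0.01 (SE 0.05; adjusted p = 0.909 by edgeR) with a 95% interval of 0.919-fold to 1.08-fold. Tnf lies on chromosome 17 from 35199381 to 35202007 between the lymphotoxin genes Lta and Ltb, of which Lta had 4 counts and Ltb was at 0.536 ± 0.218 CPM in Alox5-/- libraries and 0.335 ± 0.0567 CPM in WT libraries (± SD over 3 libraries each; adjusted p = 0.124 by edgeR). Nfkbil1, named for its likeness to NF-kB inhibitors and found in the same gene-dense stretch, was at 31.1 ± 5.71 CPM in Alox5-/- libraries and 15.6 ± 1.70 CPM in WT libraries (adjusted p = 2.08e-06 by edgeR). Of 26 tested neighbours of Tnf within 250 kb, 7 were higher, 5 lower and 14 not called, where 26.8% of all tested genes were called higher and 27% lower. Of the higher ones, Vwa7 and Sapcd1 lost their calls with DESeq2 (adjusted p = 0.112 and 0.182). Of the lower ones, Bag6 and Prrc2a lost theirs in edgeR with upper-quartile scaling (adjusted p = 0.126 and 0.0506).

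Csf1 was at 6.03, 5.88 and 5.68 CPM in Alox5-/- libraries and at 4.18, 4.14 and 4.77 CPM in WT libraries. The groups did not overlap, with WT replicate 3 the closest to the Alox5-/- values. The log2 fold change was 0.42 (SE 0.10; adjusted p = 0.00198 by edgeR), or 1.34-fold (95% interval 1.16 to 1.54). Csf1 lies on chromosome 3 from 107741048 to 107760469. Of its 7 tested neighbours within 250 kb, 5 were higher and 2 were not called, where 26.8% of all tested genes were called higher. The higher ones included the glutathione transferase genes Gstm5 (log2 fold change 0.62), Gstm7 (0.72) and Gstm2 (0.49). A local excess was not tested.

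Of 13 genes reported here from the receptor list, 8 were tested, of which 4 were higher, 2 lower and 2 not called. The IL-1 decoy receptor Il1r2, which binds IL-1 without signalling, rose most. It was at 2.66, 2.91 and 2.92 CPM in Alox5-/- libraries and at 1.31, 0.572 and 0.995 CPM in WT libraries, a log2 fold change of 1.55 (SE 0.20; adjusted p = 1.34e-05 by edgeR). Every Alox5-/- library was above every WT library. Il1rap, the accessory chain of the IL-1 receptor, rose by 0.24 on the log2 scale (adjusted p = 0.000188 by edgeR), while Il1r1, the signalling chain, had 23 counts in all and was not tested. Both antagonists of IL-1 thus changed, Il1r2 upward and Il1rn downward, beside agonists that were hardly detected.

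Ccr1, a receptor of Ccl3, Ccl6 and Ccl9, was at 73.8, 76.8 and 75.7 CPM in Alox5-/- libraries and at 96.9, 105 and 104 CPM in WT libraries. All Alox5-/- values were lower (log2 fold change -0.44, SE 0.04; adjusted p = 2.65e-07 by edgeR). Ccrl2, on the receptor list as an atypical receptor that presents chemoattractants without signalling, rose 1.47-fold (adjusted p = 0.00124 by edgeR).

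The TNF receptors moved in opposite directions by small amounts. Tnfrsf1a, the broadly expressed receptor with a death domain, was at 134 ± 0.663 CPM in Alox5-/- libraries and 118 ± 3.79 CPM in WT libraries (± SD over 3 libraries each; adjusted p = 0.000346 by edgeR). Tnfrsf1b, the leukocyte receptor, was at 70.6 ± 2.28 CPM in Alox5-/- libraries and 80.1 ± 2.85 CPM in WT libraries (adjusted p = 0.00127 by edgeR). Cxcr2, the receptor of Cxcl2, was at 3.08 ± 0.0326 CPM in Alox5-/- libraries and 3.54 ± 0.15 CPM in WT libraries, and Csf1r, the receptor of M-CSF, at 4.03 ± 0.458 and 4.29 ± 0.411 CPM. Neither was called (adjusted p = 0.154 by edgeR for Cxcr2 and 0.513 for Csf1r).

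**Figure D4:**
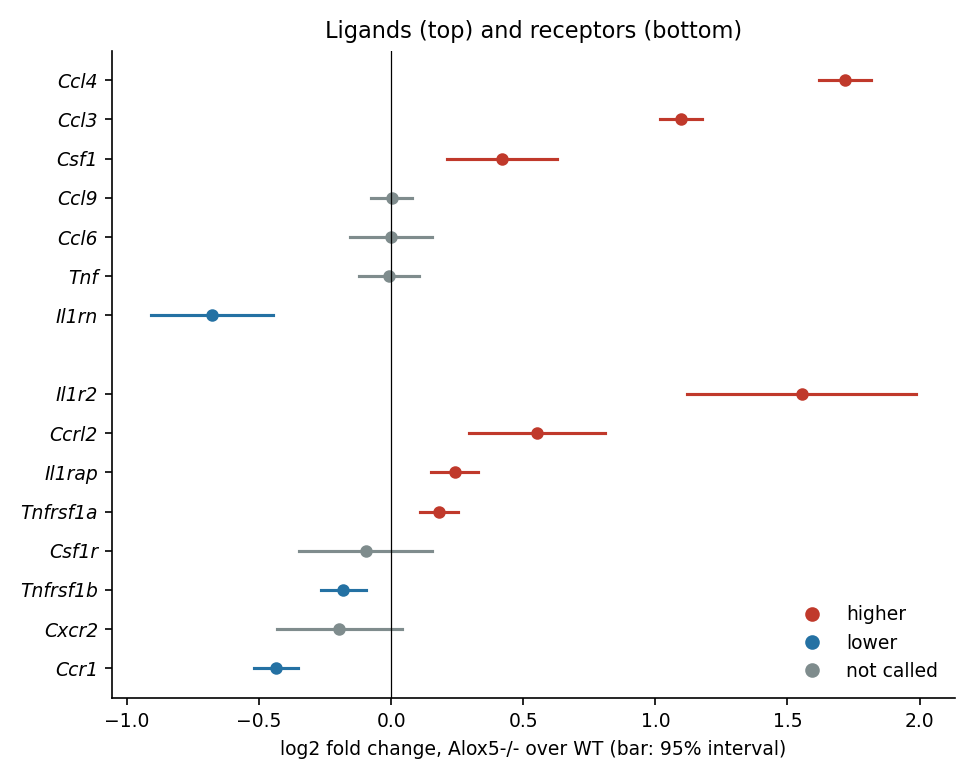
Log2 fold change of Alox5-/- over WT with its 95% interval for the 7 tested ligand genes (top) and the 8 tested receptor genes (bottom); red is called higher, blue lower and grey not called. Ccl4 (1.72) and Il1r2 (1.55) lie farthest to the right and Il1rn (-0.68) farthest to the left.

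Other inflammatory cytokines were mostly silent or not called. Of 28 on the list, 16 were tested, 3 of them higher, 2 lower and 11 not called, and the median was -0.02 on the log2 scale. Il16, a CD4 ligand, was at 120, 116 and 120 CPM in Alox5-/- libraries and at 78.0, 69.5 and 77.1 CPM in WT libraries (adjusted p = 8.16e-09 by edgeR). Osm, which encodes oncostatin M, rose by 0.23 on the log2 scale (adjusted p = 0.00156 by edgeR). Tnfsf9, the 4-1BB ligand, fell by 1.28 on the log2 scale (adjusted p = 0.000242 by edgeR). Tnfsf14, also known as LIGHT, fell by 0.34 (adjusted p = 0.00347 by edgeR). The libraries of Mif, macrophage migration inhibitory factor, overlapped, and its call (log2 fold change 0.32; adjusted p = 0.00612 by edgeR) was lost with DESeq2 (adjusted p = 0.0898) and in a robust fit (adjusted p = 0.152). Tgfb1, Il12a and Ebi3, the most abundant of the others, were not called. Tgfb1 passed the threshold without Alox5-/- replicate 2 (adjusted p = 0.00215), without WT replicate 2 (0.0266) and with no filter (0.00485), and Il12a without WT replicate 2 (0.0335). The edgeR fit with no filter also put Mif at an adjusted p of 3.6e-15, so its value for Tgfb1 carries little weight.

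Among 16 tested genes for processing and release, 6 were higher, 3 lower and 7 not called (median log2 fold change 0.02). Ctsg, cathepsin G, a granule protease that trims chemokines and IL-1 family proteins, was at 2711 ± 26.8 CPM in Alox5-/- libraries and 2228 ± 45.5 CPM in WT libraries (± SD over 3 libraries each; adjusted p = 1.85e-06 by edgeR). Ctsc, which activates such proteases, rose by 0.25 on the log2 scale, and Casp4, an inflammatory caspase, by 0.40. Elane, a further granule protease gene, was called lower, by 0.17, in overlapping libraries (adjusted p = 0.0183 by edgeR). Adam10, a membrane sheddase, rose by 0.20, while Adam17, the protease that releases TNF, was at 194 ± 1.44 CPM in Alox5-/- libraries and 187 ± 6.95 CPM in WT libraries and was not called (adjusted p = 0.233 by edgeR, and 0.0384 without WT replicate 2). Casp1, Nlrp3 and Pycard, which form the inflammasome that matures IL-1 beta, were not called either (adjusted p by edgeR 0.224 for Casp1, 0.953 for Nlrp3 and 0.911 for Pycard). Nor were the abundant proteases Prtn3 and Casp8, although Prtn3 was called without Alox5-/- replicate 2 (adjusted p = 0.0202). Nlrc4, an inflammasome sensor, fell by 0.46, and the gelatinase Mmp9, at under 1 CPM in both genotypes, fell by 1.59. Gsdmd and Rhbdf2, also on this list, were called higher, by 0.20 and 0.29 (adjusted p = 0.00321 and 0.00223 by edgeR). The genes for release of IL-1 beta and TNF were thus not all uncalled.

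Of 12 tested genes whose proteins govern the decay of cytokine mRNA, 3 were higher, 6 lower and 3 not called, and their median was -0.12 on the log2 scale. Zfp36l1, which promotes the decay of AU-rich mRNA, was at 10.2, 13.4 and 10.2 CPM in Alox5-/- libraries and at 5.89, 4.95 and 4.77 CPM in WT libraries, a log2 fold change of 1.12 (SE 0.12; adjusted p = 1.41e-06 by edgeR). Alox5-/- replicate 2 was the highest, and all Alox5-/- values were above all WT values. Zfp36, which encodes tristetraprolin, rose by 0.21 on the log2 scale. Rc3h1, which encodes roquin, fell by 0.34, the deadenylase scaffold Cnot1 fell by 0.17 and Elavl1, a stabiliser of AU-rich mRNA, fell by 0.16.

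Signalling genes below the IL-1 and TNF receptors numbered 34 tested, with 9 higher, 7 lower and 18 not called (median log2 fold change 0.00). Traf1, an adaptor of the TNF receptor family, was at 3.37, 3.45 and 3.50 CPM in Alox5-/- libraries and at 1.64, 1.08 and 1.49 CPM in WT libraries, a log2 fold change of 1.28. Irak2, a kinase of IL-1 signalling, rose by 0.73, Ripk2, a kinase of NOD signalling, by 0.64 and Nfkbiz, an inducible nuclear NF-kB cofactor, by 0.88. Traf3, an inhibitor of alternative NF-kB signalling, fell by 0.46 and Irak3, an inhibitor of IL-1 receptor signalling, fell by 0.29. The adjusted p of these 6 genes by edgeR ran from 1.00e-08 for Irak2 to 2.84e-05 for Irak3. The other genes called lower were Tradd (log2 fold change -0.28), Myd88 (-0.22), Tnip1 (-0.18), Ripk1 (-0.12) and Traf2 (-0.11), beside the 9 called higher. The genes called lower were thus not inhibitors alone. Nfkb1, Mapk14 and Mapkapk2, the most abundant uncalled genes of this list, changed by less than 0.05 on the log2 scale.

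**Figure D5:**
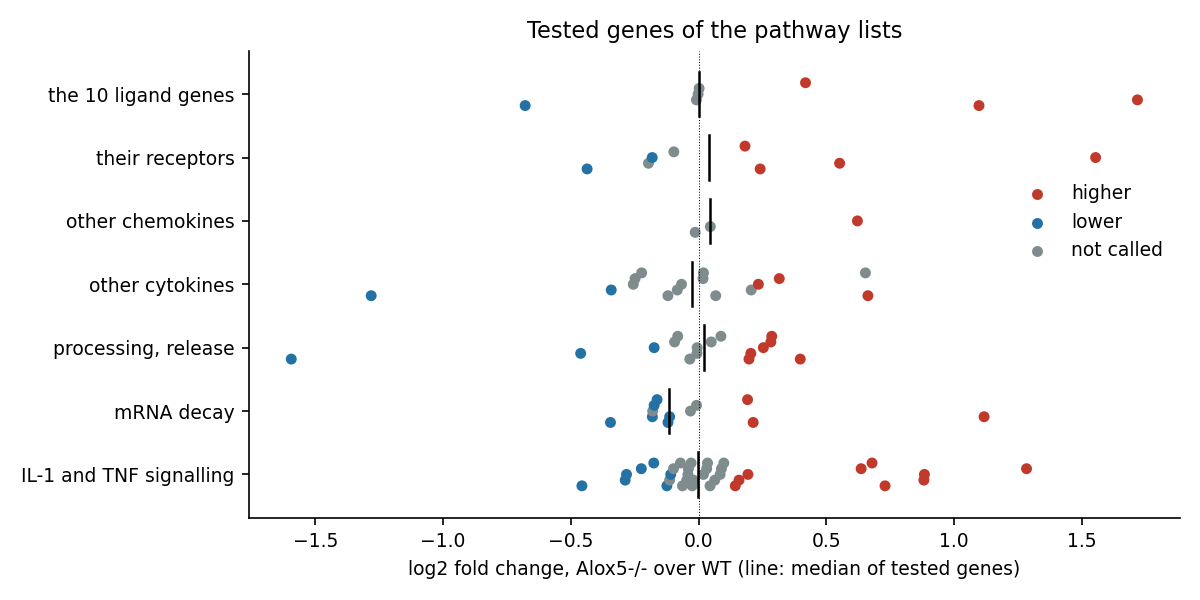
Log2 fold change of Alox5-/- over WT for each tested gene of the ligand group and of the lists around it; red points are called higher, blue lower and grey not called, and the black line is the median of the tested genes. The medians lie between -0.12 for mRNA decay and 0.05 for the other chemokines. Single genes such as Il1r2, Traf1 and Zfp36l1 reach past 1, and Mmp9 (-1.59) and Tnfsf9 (-1.28) reach past -1.

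Markers of other cell types that the sorted cells could hold were read in the same libraries. Of 11 T and NK cell markers, Cd3e, Cd3g, Cd2, Gzma and Ncr1 had no count, and Nkg7 alone was tested and higher (17.4 CPM in Alox5-/- and 11.7 CPM in WT). The summed level of that list was 15.1 to 19.8 CPM in Alox5-/- and 10.2 to 14.4 CPM in WT. Of 11 macrophage markers, Marco, Vsig4 and Timd4 had no count and C1qa had 1, Cd68 was higher and Adgre1 lower, and the sum was 79.8 to 82.3 CPM in Alox5-/- and 74.96 to 80.1 CPM in WT.

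Of 7 tested neutrophil markers 6 were lower, among them S100a8 (8.03 CPM in Alox5-/- and 25.3 CPM in WT), and Ly6g was higher, and the list summed to 36.5 to 37.0 CPM in Alox5-/- and 73.5 to 79.5 CPM in WT. Of 7 mast cell and basophil markers, Fcer1a and Prss34 had no count, Mcpt8 and Gata2 were not called, Cpa3 and Hdc were lower and Ms4a2 was higher (a call lost without Alox5-/- replicate 3 or WT replicate 3, adjusted p = 0.0553 and 0.0901), with sums of 112 to 117 CPM in Alox5-/- and 175 to 187 CPM in WT. Of 6 B cell markers Vpreb1 alone was called, lower, and the sum was 1.48 to 1.96 CPM in Alox5-/- and 1.45 to 2.28 CPM in WT. Of 9 stromal and endothelial markers 7 averaged under 1 CPM, among them Cdh5 with 7 counts in all. Of 3 tested, Pecam1 was higher, and so was Pdgfrb, in overlapping libraries and not with DESeq2 (adjusted p = 0.0956). The list summed to 207 to 212 CPM in Alox5-/- and 184 to 187 CPM in WT, almost wholly from the few genes above 1 CPM. The part of any of these in the ligand values was not tested.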

How the data were processed

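Poly-A RNA of sorted cells was amplified with the SMARTer kit, per the labels' protocols, and the authors deposited raw read counts per gene. HTSeq, DESeq2 and the build mm10 are listed among the submitters' processing notes. The aligner, versions, annotation release and strandedness are not given in the sources used. Of all reads, 60.0 to 60.9% fell in genes, and 5 summary rows that name no gene (24.4 to 24.8% not uniquely aligned, 9.10 to 10.2% outside genes) were left out. Reads of near-identical copies may be among those not uniquely aligned.

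Differential expression was computed with edgeR 4.0.16 (R 4.3.3): TMM scaling, the default filter on low counts, a quasi-likelihood F-test of genotype without covariates, and Benjamini-Hochberg adjustment over all tested genes (threshold 0.05). The fit was also run on simulated counts with the same spread for every gene and no library set apart. That run cannot show how well the p-values hold for these libraries. SE came from the coefficient and its F statistic, intervals from the moderated degrees of freedom. Positions and merged exon lengths came from GENCODE M21 (mm10), promoter windows from RefSeq, found for 8 of the 10 genes (not Ccl4 or Ccl5). A count of 0 allows up to 3 counts, 0.0786 to 0.103 CPM, for counting error only. Libraries of a group differed by more than sampling noise (2.11 to 9.65 for chi-square over its degrees of freedom), and each was counted as 1 sample. The chi-square cannot tell separate animals from separate preparations of 1 pool. The variation between libraries of a group beyond counting error, as edgeR's common coefficient, was small, at 3.7%.

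The genes and lists were chosen with earlier results of these data known. Genes open to naming were the 10 genes, Alox5, every tested receptor, up to 6 called (smallest p) and 3 uncalled (most abundant) members of a list, and tested genes within 250 kb. Of the lists and the neighbours the text names only some of these, picked with their values known, and gives the others as counts. Named outside this rule, after their values were seen, were Cxcl1, Cxcl3, Il1a, Il1r1, Lta, Il1bos, E230016K23Rik, Pycard, Nlrp3 and Casp1, and marker genes at or near 0. So were Myd88, Tradd, Traf2, Ripk1, Tnip1, Gsdmd, Rhbdf2 and Elane. From the receptor list and the neighbouring genes, 2 genes are not reported here. Alternatives were DESeq2 1.42.0, limma-voom (limma 3.58.1), other scalings and filters (none, or 1 CPM in 3 libraries), a robust fit, a 1.5-fold minimum, each library left out, and the replicate number as a block.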

Additional observations from a re-analysis of the deposited data

How the results depend on the processing

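The 4 calls among the ligand genes kept their direction and their side of the threshold in all 14 alternatives of tool, scaling, filter, fit, block and library left out. The log2 fold change ranged from 1.07 to 1.14 for Ccl3, 1.70 to 1.75 for Ccl4, 0.38 to 0.49 for Csf1 and -0.72 to -0.60 for Il1rn, with the largest adjusted p at 0.0153, for Csf1. Ccl6, Ccl9 and Tnf were called in none of them, and their values passed 0 in both directions (-0.07 to 0.06, -0.03 to 0.04 and -0.04 to 0.02). DESeq2 and the fit with no filter called 4 genes higher, Cxcl2 in addition. The adjusted p of the fit with no filter was far smaller than that of the main fit for several genes, such as Ccl3 and Mif. Scaling moved the median of all genes by at most 0.03. Over all genes 7379 were called, 3673 of them higher, and a minimum of 1.5-fold left 1581, with 1041 higher; among the ligand genes it left 2 higher, without Csf1, and 1 lower. Leaving out a library gave 6583 to 7251 called genes, 3294 to 3575 of them higher. The log2 difference of the Ccl4 to Ccl3 ratio was 0.60 to 0.65, that of Ccl9 to Ccl6 -0.06 to 0.08, and that of Il1rn to Il1b -2.08 to -0.93. The other named genes, each under every alternative in which it was tested, kept their call in 1789 cases, lost it in 42 and gained it in 18, with no called gene changing sign. Libraries of the same replicate number showed no shared deviation (correlations of deviations -0.04, -0.13 and -0.01 for replicates 1 to 3). Such correlations over 3 libraries per group cannot exclude a small shared effect. With the replicate number as a block 7029 genes were called and the ligand calls stayed at 3 higher and 1 lower.

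Depth limits Il1b, Cxcl2 and Ccl5, whose 3 to 26 counts in all allow no firm level.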
